A study of Mus musculus with 17 samples.

Results

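Myeloid leukemias that arose from LSK cells were compared with myeloid leukemias that arose from granulocyte-macrophage progenitors (GMP), the 2 marrow origins in a series of 17 mouse expression arrays. The comparison holds 8 of the 17 arrays, chosen by their titles alone, of which 3 are titled as LSK-derived and 5 as GMP-derived leukemia. LSK cells are marrow cells without lineage markers and with Sca1 and c-kit, a fraction enriched for hematopoietic stem cells, and GMP are the committed precursors of neutrophils and monocytes. In both groups the donors were C57/Bl6 CD45.2 mice of wildtype genotype, and Myc with Bcl2 had been introduced into the donor cells. These cells were injected into recipients aged 4 to 8 weeks that had been irradiated with 4.5 to 6 Gy. Spleen cells of recipients with leukemia were sorted for CD11b and Gr1 and against CD3, CD4 and CD8, and 300 ng of RNA went onto each array. The other 9 arrays (5 of DN2-derived leukemia, 2 of healthy thymic DN2 cells and 2 of healthy GMP) entered the fit so that the spread could be estimated over all groups, and the healthy GMP are given below as a level. The labels do not say whether arrays of a group came from separate mice or from separate transformed clones, so the p-values measure the spread between these samples. No control without Myc and Bcl2 stands among the 8 arrays.

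Myc family proteins are transcription factors that bind E-box sequences and raise the genes of ribosome production, nucleotide synthesis and growth, and in excess they can activate p53 through the Arf product of Cdkn2a. Bcl2 blocks the mitochondrial route of cell death, and the pair is a classic combination in mouse models of blood cancer. In normal marrow the myeloid branch divides into neutrophils, with their ordered waves of granule proteins, and monocytes, with Irf8 and Klf4 among the regulators of the monocyte side and Gfi1 on the neutrophil side.

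Values are log2 expression per probe set, and each gene is represented by 1 probe set. A value close to 3.83, the median of all values, is background signal, so differences against such a level are compressed. Differences are LSK minus GMP on the log2 scale with the standard error (SE) from limma, and a gene is called where its adjusted p is under 0.05. LSK-labelled array 1 differed from arrays 2 and 3 at Mycn, so its position is stated for each main gene. It stands with arrays 2 and 3 where all 3 lie outside the range of the 5 GMP-labelled arrays on the same side, and apart from them where it lies inside that range or beyond its other end.

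The oncogenes split the LSK-labelled arrays and not the GMP-labelled ones. Mycn was at 12.82 in LSK-labelled array 1, 4.91 in array 2 and 4.22 in array 3, against 13.15, 12.79, 12.28, 12.06 and 12.45 in GMP-labelled arrays 1 to 5. Array 1 lay within the GMP-labelled range, while arrays 2 and 3 lay near healthy GMP, which had 3.96 and 4.58. The group difference was −5.23 ± 1.32 (SE, adjusted p = 0.00903), and it joins a difference of 0.27 in array 1 with a mean of −7.98 in arrays 2 and 3. Fitted on the 8 arrays only, its adjusted p was 0.081. The other Mycn probe sets were at background in both groups, with means of 3.00 and 3.50 in the LSK-labelled and 2.79 and 3.38 in the GMP-labelled arrays. Myc had 5.98, 6.13 and 5.95 in the LSK-labelled arrays, against 6.49, 5.99, 5.68, 5.64 and 6.41 in the GMP-labelled arrays, and did not differ by the test (−0.02 ± 0.23, adjusted p = 0.958). All 8 arrays lay below healthy GMP at Myc, where the values were 10.65 and 10.37. At Mycn, LSK-labelled arrays 2 and 3 go against the Myc part of their label. The labels do not name the Myc family gene of the vector, and the cause of the split was not tested. Without LSK-labelled array 2 or 3 the difference was −4.03 (adjusted p = 0.0678) or −3.68 (adjusted p = 0.0619).

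Bcl2 followed the same division at the probe set with the highest mean. Its values were 11.30, 6.75 and 5.27 in LSK-labelled arrays 1, 2 and 3, against 11.53, 10.91, 10.32, 10.08 and 10.95 in the GMP-labelled arrays, and 6.51 and 5.89 in healthy GMP. Array 1 again lay within the GMP-labelled range and arrays 2 and 3 below it (difference −2.98 ± 0.90, adjusted p = 0.0231). Without array 2 or 3 it was −2.47 (adjusted p = 0.119) or −1.73 (adjusted p = 0.148). The remaining Bcl2 probe set had the opposite sign, with 6.90, 9.32 and 8.48 in the LSK-labelled arrays against 3.61 to 4.00 in the GMP-labelled arrays, and a mean of 8.76 in healthy GMP. There the group difference was 4.40 and all 3 LSK-labelled arrays lay above, array 1 lowest. Other probe sets were compared for the 155 genes named by the rule given below, of which 37 called genes had another one above background. Of these 37, Bcl2 was the only gene where it moved by at least 0.5 in the opposite direction. Genes of the text outside the 155 were not compared in this way.

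**Figure D1:**
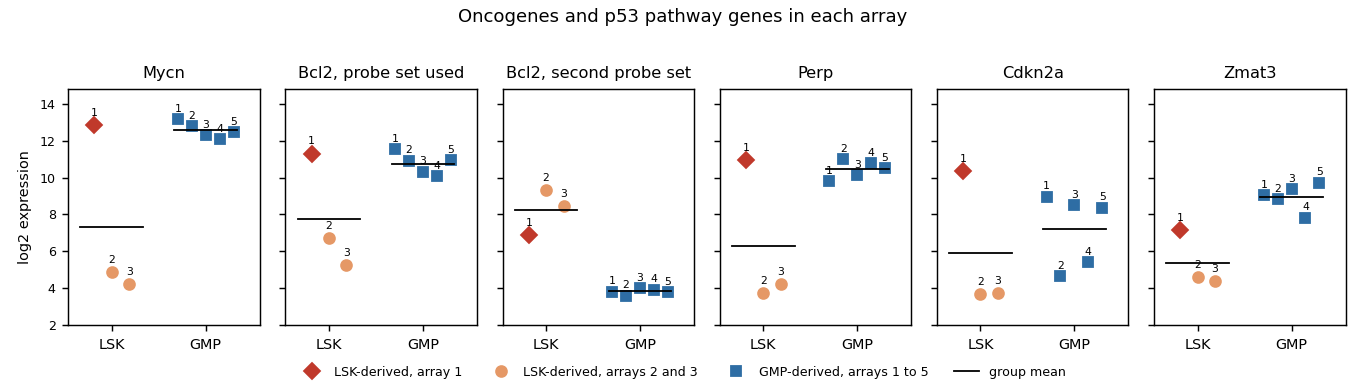
Log2 expression (y axis) of Mycn, both Bcl2 probe sets, Perp, Cdkn2a and Zmat3 in each LSK-labelled array (left; array 1 as a diamond, arrays 2 and 3 as circles) and each GMP-labelled array (right, squares), with array numbers and the group mean as a line. LSK-labelled array 1 sits with the GMP-labelled arrays at Mycn (12.82), the first Bcl2 probe set (11.30) and Perp (10.96), and arrays 2 and 3 sit far below them.

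Of the genes of the sort, Cd3d and Cd4 were called and Itgam, Cd3e and the CD8 genes were not. Itgam, which encodes CD11b, had 8.99, 9.54 and 10.03 in the LSK-labelled arrays, against 9.23, 8.15, 9.88, 8.06 and 9.95 in the GMP-labelled arrays (difference 0.46 ± 0.91, adjusted p = 0.76), and the groups overlapped. Cd3e lay at 5.00 to 5.34 in the LSK-labelled and 5.05 to 5.24 in the GMP-labelled arrays. Cd8a lay at 3.25 to 3.63 in the LSK-labelled and 3.29 to 3.66 in the GMP-labelled arrays, at background. Cd3d was above background in both groups and lower in the LSK-labelled arrays, with 6.21, 5.22 and 7.28 against 7.08, 6.95, 8.53, 7.41 and 8.07 (−1.37 ± 0.40, adjusted p = 0.0202), a call lost without array 2 (adjusted p = 0.144). Cd4, near background, had 3.87, 3.92 and 4.01 in the LSK-labelled arrays against 3.50 to 3.70 in the GMP-labelled arrays, without overlap (0.30 ± 0.10, adjusted p = 0.048). Its call was lost on leaving out any 1 array other than LSK-labelled array 1 (adjusted p = 0.0551 to 0.155). Cd8b1 was at 5.09 in LSK-labelled array 1 and at most 3.51 in the other 7 arrays. Ly6g, listed for Gr1, was not analysed here.

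Over all genes, limma called 3108 of 11625 tested genes (26.7%), of which 1194 were higher (10.3%) and 1914 lower (16.5%) in the LSK-labelled arrays, and 1867 (16.1%) were called with a fold of at least 2. The groups did not overlap at 2777 genes (23.9%), with all LSK-labelled arrays above at 1108 (9.53%) and all below at 1669 (14.4%). Among the called genes, array 1 stood with arrays 2 and 3 at 2244 (72.2%), lay inside the GMP-labelled range at 619 (19.9%) and lay beyond its other end at 4. At the remaining 241 called genes arrays 2 and 3 were themselves not both outside on 1 side. Array 1 alone against the GMP-labelled arrays, with its spread assumed to be that of the other groups, gave 1374 called genes (11.8%), 515 higher (4.43%) and 859 lower (7.39%). Arrays 2 and 3 without array 1 gave 3716 (32%), 1690 higher (14.5%) and 2026 lower (17.4%). These comparisons share the GMP-labelled arrays. Across the tested genes array 1 correlated with arrays 2 and 3 at 0.907 to 0.909, while arrays 2 and 3 correlated with each other at 0.982 and the GMP-labelled arrays among themselves at 0.933 to 0.990. Array 1 correlated with the GMP-labelled arrays at 0.885 to 0.909. The median difference over all tested genes was −0.06. Fitted on the 8 arrays only, limma called 1659 genes, and without LSK-labelled array 2 it called 1889.

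Ribosome biogenesis genes were lower in the LSK-labelled arrays, mainly through arrays 2 and 3. Of 24 tested genes of the 26 listed, 22 fell and 0 rose, against 16.5% of all tested genes called lower, with a median difference of −1.36. Per array the median difference from the GMP-labelled mean was −0.47 in array 1, −1.72 in array 2 and −2.11 in array 3. Of the 22 called genes, array 1 stood with the others at 16 and lay inside the GMP-labelled range at 6. With array 1 alone 3 of 24 fell, and without it 23 of 24 fell.

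Dkc1, the pseudouridine synthase of small nucleolar RNA particles, shows how array 1 was placed. It had 10.15, 7.60 and 7.98 in LSK-labelled arrays 1, 2 and 3, against 11.80, 11.82, 11.41, 11.85 and 11.70 in the GMP-labelled arrays (−3.14 ± 0.41, adjusted p = 0.000116), and 11.41 and 11.38 in healthy GMP. Array 1 lay below every GMP-labelled array and above arrays 2 and 3. Pus7, another pseudouridine synthase, had 7.42, 4.42 and 4.76 against 9.01, 9.78, 8.77, 9.23 and 8.70 (−3.56 ± 0.50, adjusted p = 0.00021), with array 1 in the same intermediate place. Nop58, a core protein of box C/D particles that methylate ribosomal RNA, had 10.33, 7.76 and 7.46 against 10.77, 11.18, 10.49, 10.95 and 9.91 (−2.15 ± 0.48, adjusted p = 0.00468). There array 1 lay inside the GMP-labelled range. Wdr12, a factor of the large ribosomal subunit, fell by 2.68 ± 0.54 (SE), and array 1 at 9.13 lay just below the lowest GMP-labelled array at 9.19. The smallest called fall of the list was that of Ncl, nucleolin, at −0.66, and Pes1 (−0.80) and Wdr75 (−0.58) did not pass.

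Nucleotide and polyamine synthesis genes moved in the same manner. Of 14 tested genes of 19 listed, 12 fell and 0 rose, against 16.5% of all tested genes called lower, with a median of −1.77 and medians of −0.93, −1.98 and −2.18 in LSK-labelled arrays 1, 2 and 3. Srm, spermidine synthase, had 10.00, 6.87 and 6.47 in the LSK-labelled arrays, against 10.21, 11.20, 10.71 and 11.48 in GMP-labelled arrays 1 to 4 and 11 in array 5 (−3.14 ± 0.59, adjusted p = 0.00153). Array 1 was below the GMP-labelled range by a small margin and arrays 2 and 3 by over 3 units. Cad, the enzyme of the first steps of pyrimidine synthesis, had 7.87, 4.95 and 5.48 against 8.69 to 9.16 in the GMP-labelled arrays (−2.83 ± 0.46, adjusted p = 0.000564). Shmt1, of one-carbon metabolism, had 6.74, 5.88 and 5.86 against 8.31 to 9.61 (−2.71 ± 0.39). At this probe set array 1 lay closer to arrays 2 and 3 than to the GMP-labelled range. It lay below that range at the other Shmt1 probe sets too. At 1 of them it was nearer the range, with 7.05, 4.56 and 4.81 against 8.12 to 9.57. Of the 12 called genes, array 1 stood with the others at 9 and lay inside the GMP-labelled range at 3 (Paics, Nme1 and Shmt2). Odc1 and Tyms had differences of −1.12 and −0.56 and did not pass.

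The promoters of these genes can be read for the core E-box to which Myc proteins bind, CACGTG, which reads the same on both strands. Windows from 250 bases before to 50 bases after the start of a gene, taken from RefSeq (GRCm38.p6), were available for 22 of the ribosome biogenesis and 15 of the nucleotide and polyamine genes. The letters occurred in 6 of the 22 (27.3%) and in 5 of the 15 (33.3%), against 8.09% of all 27025 genes with a window. Of the 11 genes that carry them 8 were tested, of which 6 fell and 2 (Pes1 and Tyms) did not pass. Of all tested genes of these lists 22 of 24 and 12 of 14 fell, so the carriers did not fall more often than their lists. Pus7 and Utp20 are shown because they had the largest falls among the called ribosome biogenesis carriers (−3.56 and −1.76). The letters are in capitals and lie close to the start. A match is a description of the sequence and no evidence of binding.
Pus7, chr5:23783662-23783961, minus strand: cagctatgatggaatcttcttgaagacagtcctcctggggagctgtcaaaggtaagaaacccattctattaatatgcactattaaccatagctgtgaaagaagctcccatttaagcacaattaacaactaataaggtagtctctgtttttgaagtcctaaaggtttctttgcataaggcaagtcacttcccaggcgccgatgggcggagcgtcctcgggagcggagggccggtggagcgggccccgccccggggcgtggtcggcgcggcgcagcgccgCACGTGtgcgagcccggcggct
Utp20, chr10:88826765-88827064, minus strand: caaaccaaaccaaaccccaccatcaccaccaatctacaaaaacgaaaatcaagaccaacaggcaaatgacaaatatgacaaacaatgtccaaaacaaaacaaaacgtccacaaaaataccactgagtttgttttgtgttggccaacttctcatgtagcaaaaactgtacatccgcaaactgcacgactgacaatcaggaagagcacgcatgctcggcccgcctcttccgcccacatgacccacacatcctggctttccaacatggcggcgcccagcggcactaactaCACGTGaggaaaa

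Few cell cycle genes were called. Of 29 tested genes, 3 fell and 0 rose, a share of the list below the 16.5% of all tested genes called lower, with a median difference of −0.28 and array medians of 0.06, −0.61 and −0.03. Mki67, which encodes the proliferation antigen Ki-67 and was chosen after its values were seen, had 11.05, 10.27 and 11.01 in the LSK-labelled arrays against 10.54, 9.51, 11.18, 10.39 and 10.96 in the GMP-labelled arrays. Its groups overlapped (0.27 ± 0.63, adjusted p = 0.803). The 3 called genes serve DNA replication licensing: Mcm6 (−0.99 ± 0.30), Mcm2 (−0.96 ± 0.32) and Cdt1 (−0.79 ± 0.25). Array 1 lay below the GMP-labelled range at Mcm2 and Cdt1 and inside it at Mcm6. None of the 3 calls was kept without array 2, where the adjusted p was 0.136 for Mcm6, 0.142 for Mcm2 and 0.155 for Cdt1. All 3 were also lost without array 3, and Mcm2 and Cdt1 without GMP-labelled array 2 or 4.

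In the p53 pathway 7 of 17 tested genes fell and 1 rose, against 16.5% of all tested genes called lower and 10.3% called higher, with a median of −1.22. The array medians were −0.19, −1.51 and −1.38. Perp, a p53 target that encodes a junction protein, had 10.96, 3.73 and 4.23 in LSK-labelled arrays 1, 2 and 3, against 9.81, 10.99, 10.13, 10.76 and 10.51 in the GMP-labelled arrays (−4.13 ± 1.18, adjusted p = 0.0176), with 4.93 and 4.64 in healthy GMP. Array 1 was among the GMP-labelled arrays and the other LSK-labelled arrays were at the healthy level. Without array 2 or 3 the adjusted p was 0.125 or 0.104. Zmat3, a p53 target that encodes a zinc finger protein, had 7.16, 4.61 and 4.42 against 9.05, 8.82, 9.36, 7.83 and 9.72 (−3.56 ± 0.51, adjusted p = 0.000231). Here all 3 LSK-labelled arrays lay below, array 1 between the others and the GMP-labelled range. Ccng1, cyclin G1, another p53 target, had 10.13, 9.46 and 9.66 against 11.45 to 12.23 (−2.07 ± 0.22, adjusted p = 1.93e-05), with array 1 beside arrays 2 and 3. Phlda3, a p53-induced inhibitor of Akt, fell by 2.49 ± 0.52 (SE) and array 1 again stood with the others. The gene that rose was Sesn1, by 0.92, and array 1 stood with the others. Its call was lost without array 1, and also with GMP-labelled arrays 1, 3 and 5 as the only comparison.

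Cdkn2a, which encodes Arf and p16, was chosen after its values were seen. It had 10.34, 3.70 and 3.75 in LSK-labelled arrays 1, 2 and 3, against 8.97, 4.68, 8.49, 5.44 and 8.37 in GMP-labelled arrays 1 to 5. Array 1 was above every GMP-labelled array and arrays 2 and 3 below every one, so the difference of −1.26 ± 1.37 (adjusted p = 0.547) describes neither. Cdkn1a, the p21 inhibitor of the cell cycle, also chosen after its values were seen, had 12.07, 9.55 and 7.81 against 11.03, 10.46, 11.22 and 11.25 in GMP-labelled arrays 1 to 4 and 12 in array 5 (−1.38 ± 0.76, adjusted p = 0.196). At this probe set array 1 lay just above the GMP-labelled range and arrays 2 and 3 below it. At the other Cdkn1a probe set array 1 lay inside the range, with 11.30, 9.54 and 6.87 against 10.15 to 11.45. Without array 1, Cdkn2a differed by −3.47 (adjusted p = 0.0236) and Cdkn1a by −2.51 (adjusted p = 0.00814).

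**Figure D2:**
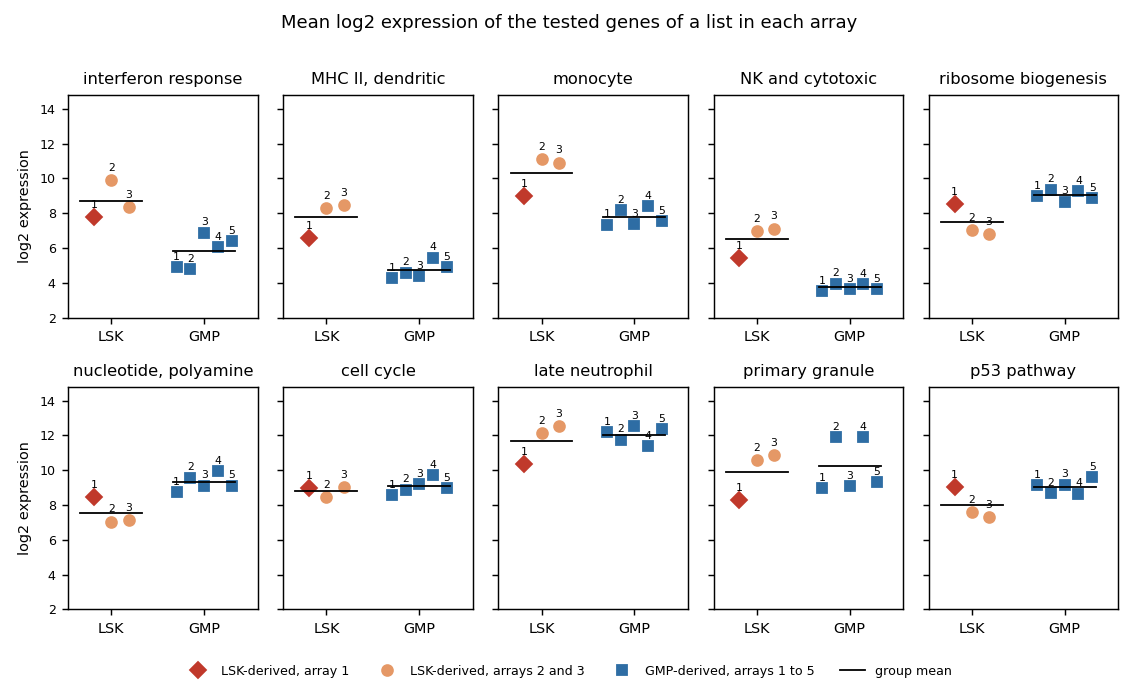
Mean log2 expression (y axis) over the tested genes of 10 lists in each LSK-labelled array (left; array 1 as a diamond, arrays 2 and 3 as circles) and each GMP-labelled array (right, squares), with the group mean as a line. The 3 LSK-labelled arrays lie above all GMP-labelled arrays for the interferon, MHC class II, monocyte and NK lists, and array 1 lies below all other 7 arrays for the late neutrophil list, at 10.38.

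Interferon response genes were higher in all LSK-labelled arrays. Of 23 tested genes of the 27 listed, 20 rose and 0 fell, against 10.3% of all tested genes called higher, and the median difference was 2.92, or 2.06, 4.08 and 2.62 in arrays 1, 2 and 3. Array 1 stood with arrays 2 and 3 at 18 of the 20 and lay inside the GMP-labelled range at Cxcl9 and Gbp3. In bulk samples such as these, more cells of a type and more RNA per cell cannot be told apart. The list mean was 7.79, 9.88 and 8.38 in the LSK-labelled arrays and ran from 4.79 to 6.88 in the GMP-labelled arrays, without overlap.

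Usp18, the protease that removes ISG15 and damps interferon receptor signalling, had 8.35, 10.15 and 8.31 in the LSK-labelled arrays, against 3.14, 3.22, 5.27, 4.94 and 4.34 in the GMP-labelled arrays (4.75 ± 1.13, adjusted p = 0.0064). Every LSK-labelled array lay above every GMP-labelled array by over 3 units, and healthy GMP had 4.83 and 4.26. Mx1, an antiviral GTPase, had 6.69, 10.34 and 8.06 against 3.55, 3.53, 3.81, 5.10 and 3.71 (4.42 ± 0.99, adjusted p = 0.00468), with array 1 lowest of the LSK-labelled arrays and still above. Ifit3, an RNA-sensing antiviral protein, had 8.96, 11.69 and 9.40 against 4.05, 4.07, 8.49, 5.82 and 7.53 (4.02 ± 1.23, adjusted p = 0.0253), so that the GMP-labelled arrays themselves ranged over more than 4 units. Rtp4, an interferon-induced transporter protein, had the same wide range of 5.36 to 10.22 in the GMP-labelled arrays, and all 3 LSK-labelled arrays lay above it at 11.05 to 11.99 (3.73 ± 1.05, adjusted p = 0.0165). Without LSK-labelled array 2 neither Ifit3 (adjusted p = 0.136) nor Rtp4 (adjusted p = 0.0753) passed. Ifit3 also lost its call without LSK-labelled array 3 or GMP-labelled array 1 or 2. With GMP-labelled arrays 1, 3 and 5 as the only comparison, 12 of the 23 genes rose and the median was 2.49. With array 1 alone limma called 1 of 23, although the median was 2.06.

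The interferon-stimulated response element, a sequence found in promoters of interferon response genes, was searched as GAAA followed, after any 2 bases, by a further GAAA, on both strands of the same promoter windows. It occurred in 12 of the 20 interferon response genes with a window (60%), against 3.99% of all 27025 genes, and in 0 of the 22 ribosome biogenesis and 0 of the 15 nucleotide and polyamine windows. The E-box letters occurred in 0 of the 20 interferon windows. Of the 12 carriers 10 were tested, of which 8 rose and 2 (Oas3 and Cxcl10) did not pass. Of all tested genes of the list 20 of 23 rose, so the carriers did not rise more often than the list. Ifit3, Gbp2 and Gbp3 are shown because they had the largest rises among the called carriers (4.02, 3.68 and 3.48). Each carries the motif on the strand opposite to that shown, so the capitals read TTTC, 2 bases, TTTC. There are 2 matches in Ifit3 and 2 overlapping matches in Gbp3.
Ifit3, chr19:34583279-34583578, plus strand: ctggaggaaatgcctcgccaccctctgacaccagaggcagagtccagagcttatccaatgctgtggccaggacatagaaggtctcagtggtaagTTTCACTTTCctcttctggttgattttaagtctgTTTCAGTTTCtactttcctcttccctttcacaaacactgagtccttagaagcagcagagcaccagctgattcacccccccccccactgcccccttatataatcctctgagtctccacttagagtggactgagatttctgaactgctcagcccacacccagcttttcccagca
Gbp2, chr3:142620413-142620712, plus strand: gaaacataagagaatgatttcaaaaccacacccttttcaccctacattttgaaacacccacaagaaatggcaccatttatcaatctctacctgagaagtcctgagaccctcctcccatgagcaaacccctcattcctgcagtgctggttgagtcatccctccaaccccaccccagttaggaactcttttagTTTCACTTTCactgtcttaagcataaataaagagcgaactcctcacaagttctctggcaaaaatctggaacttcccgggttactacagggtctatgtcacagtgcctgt
Gbp3, chr3:142559794-142560093, plus strand: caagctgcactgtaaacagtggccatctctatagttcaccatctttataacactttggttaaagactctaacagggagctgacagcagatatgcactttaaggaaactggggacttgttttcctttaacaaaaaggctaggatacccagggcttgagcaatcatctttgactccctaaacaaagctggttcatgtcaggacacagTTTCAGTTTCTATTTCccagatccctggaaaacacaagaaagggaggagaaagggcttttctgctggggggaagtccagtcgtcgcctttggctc

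MHC class II and monocyte genes were higher too. Of 13 tested MHC class II and dendritic cell genes, 11 rose and 0 fell, against 10.3% of all tested genes called higher. The list median was 3.50, with 1.81, 4.58 and 3.95 in arrays 1, 2 and 3. H2-Aa, the alpha chain of the class II molecule I-A, had 9.56, 11.48 and 11.67 in the LSK-labelled arrays, against 5.86, 4.24, 4.62, 7.84 and 5.83 in the GMP-labelled arrays (5.23 ± 1.30, adjusted p = 0.00845). Cd74, the invariant chain that guides class II molecules, had 7.80, 9.72 and 9.82 against 4.46, 4.37, 4.23, 6.44 and 5.21 (4.17 ± 0.89, adjusted p = 0.00345). In both genes array 1 was above the GMP-labelled range and below arrays 2 and 3, and GMP-labelled array 4 was the highest of its group. H2-Ab1 and H2-Eb1 rose by 5.00 ± 1.00 and 4.88 ± 1.14 (SE). Array 1 stood with the others at 9 of the 11 called genes and lay inside the range at Ciita, the class II transactivator, and at Irf8. With array 1 alone 1 of the 13 rose.

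Of 18 tested monocyte genes, 11 rose and 0 fell, against 10.3% of all tested genes called higher. The list median was 3.04 (1.18, 4.07 and 3.28 in arrays 1, 2 and 3). Array 1 stood with the others at 7 of the 11 called genes and lay inside the GMP-labelled range at 4 (Ccr2, Fcgr1, F13a1 and Fn1). Csf1r, the receptor for the monocyte growth factor M-CSF, and Cx3cr1, a chemokine receptor of monocytes, rose by 3.72 and 4.70, with array 1 standing with the others at both. Ms4a6c, a membrane protein of myeloid cells, had 9.70, 11.96 and 11.45 in the LSK-labelled arrays, against 3.99, 7.25, 4.25, 8.04 and 4.39 in the GMP-labelled arrays (5.46 ± 1.10, adjusted p = 0.00242). F13a1, a clotting factor subunit made by monocytes, had 7.54, 11.29 and 12.03 against 3.01, 9.41, 3.11, 9.0 and 3.16 (4.75 ± 1.45, adjusted p = 0.0247). GMP-labelled arrays 2 and 4 lay apart from arrays 1, 3 and 5 at both genes, and LSK-labelled array 1 lay inside that spread at F13a1. F13a1 did not pass without LSK-labelled array 2 (adjusted p = 0.105) or 3 (adjusted p = 0.115). Nor did it without GMP-labelled array 3 (adjusted p = 0.0523) or 5 (adjusted p = 0.0524). Fn1, fibronectin, had 7.66, 10.75 and 11.57 against 3.72, 8.29, 3.88, 4.69 and 3.65, with array 1 again inside the range (5.15 ± 0.95, adjusted p = 0.00136). The 7 genes that did not pass include Lyz2 (0.12), Cd68 (−0.07) and Cd14 (−1.22). In the splenic macrophage list 0 of 11 genes passed in limma, against 26.7% of all tested genes, and before adjustment 3 had a p under 0.05.

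Of 12 tested myeloid transcription factors 3 rose and 1 fell, against 10.3% of all tested genes called higher and 16.5% called lower. Gfi1, a repressor required for neutrophil development, had 7.11, 7.08 and 8.17 in the LSK-labelled arrays, against 9.82, 10.20, 9.21, 10.51 and 9.31 in the GMP-labelled arrays (−2.36 ± 0.31, adjusted p = 0.000137). All LSK-labelled arrays lay below, array 1 beside array 2. Klf4, a factor of monocyte differentiation, had 9.59, 12.15 and 10.89 against 7.97, 7.69, 6.32, 9.09 and 7.53 (3.16 ± 0.97, adjusted p = 0.0254), and Cebpb rose by 1.46 ± 0.37, with array 1 above the range in both. Irf8 had 7.02, 9.88 and 9.98 against 3.46, 6.69, 3.95, 8.11 and 4.14 (3.69 ± 1.20, adjusted p = 0.0344), with array 1 inside the range and GMP-labelled arrays 2 and 4 highest in their group. Spi1 and Cebpa had differences of 0.54 and 0.53 and did not pass. Without array 2 the adjusted p was 0.134 for Klf4, 0.136 for Irf8 and 0.0628 for Cebpb. Irf8 also lost its call without LSK-labelled array 3 or GMP-labelled array 1, 3 or 5. Klf4 also lost it without LSK-labelled array 3 or GMP-labelled array 3.

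Inflammatory and immediate early genes rose in part. Of 14 tested cytokine and chemokine genes 6 rose and 0 fell (median 2.01), and of 11 tested immediate early genes 3 rose and 0 fell (median 1.22), against 10.3% of all tested genes called higher. Ccl6, a myeloid chemokine, had 12.68, 12.47 and 12.43 in the LSK-labelled arrays against 9.05, 9.04, 10.24, 8.08 and 10.32 in the GMP-labelled arrays (3.18 ± 0.89, adjusted p = 0.0161), with the 3 LSK-labelled arrays close together. Without array 2 the adjusted p of Ccl6 was 0.0544. Il1b, chosen after its values were seen, had 9.92, 13.28 and 12.85 against 9.74, 7.39, 10.59, 10.30 and 10.71, with array 1 inside the range, and did not pass (2.27 ± 0.81, adjusted p = 0.0508). Junb, an AP-1 subunit, had 11.11, 10.83 and 9.61 against 6.93 to 8.56 (2.47 ± 0.45, adjusted p = 0.00133), and array 1 was the highest.

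**Figure D3:**
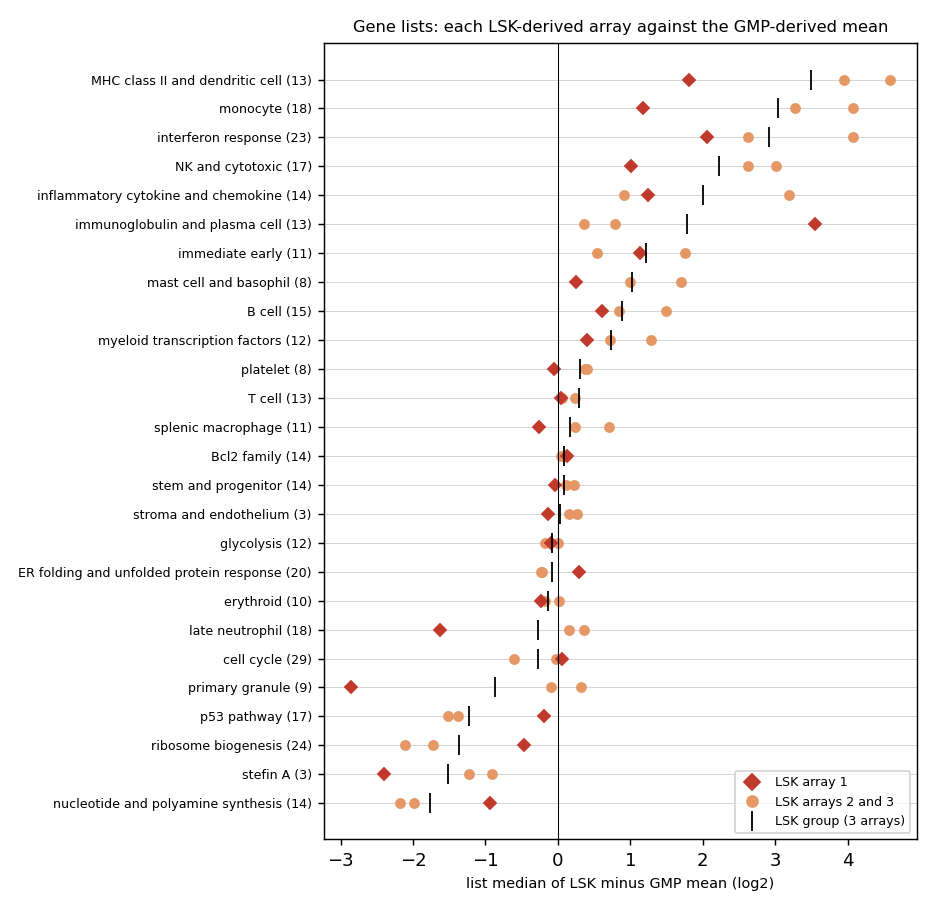
Median log2 difference from the GMP-labelled mean (x axis) over the tested genes of each list (number in brackets), for LSK-labelled array 1 (diamonds), arrays 2 and 3 (circles) and the group of 3 (bars). The interferon, MHC class II, monocyte and NK medians are above 1 in all 3 arrays, while the ribosome biogenesis median is −0.47 in array 1 and −1.72 and −2.11 in arrays 2 and 3, and the late neutrophil median is −1.62 in array 1, against 0.16 and 0.36 in arrays 2 and 3.

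The 3 largest rises of the comparison, Jchain, Igkj1 and Gzma, are genes of plasma cells and cytotoxic lymphocytes. Jchain, the joining chain of secreted immunoglobulins, had 12.89, 10.47 and 10.47 in the LSK-labelled arrays, against 4.51, 3.06, 3.02, 3.20 and 3.37 in the GMP-labelled arrays (7.84 ± 0.91, adjusted p = 4.51e-05). Igkj1, read by a probe set that can cross-hybridise to related sequences, had 13.50, 11.53 and 11.90 against 7.91, 4.24, 3.25, 3.69 and 4.25 (7.64 ± 1.25, adjusted p = 0.0006). Iglv1, a lambda light chain segment, had 12.15, 8.95 and 9.0 against 3.19 to 3.67 (6.66 ± 0.72, adjusted p = 2.65e-05). Array 1 was the highest of the 3 LSK-labelled arrays at each of these genes, and GMP-labelled array 1 was the highest of its group at each. Among 13 tested immunoglobulin and plasma cell genes 6 rose and 1 fell, against 10.3% of all tested genes called higher and 16.5% called lower. The list median was 1.79 for the group, but 3.55 in array 1 against 0.36 and 0.79 in arrays 2 and 3. The plasma cell regulators Irf4 (2.88) and Pou2af1 (2.99 ± 0.51) rose, Xbp1 (−0.11) did not pass, and Fkbp11, a chaperone of secretory cells, fell by 2.84. Array 1 stood with the others at the 6 genes that rose, and lay inside the GMP-labelled range at Fkbp11.

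B-cell genes were raised to a lower level. Of 15 tested genes 10 rose and 0 fell, against 10.3% of all tested genes called higher, with a median of 0.88. The list mean was 5.00, 5.19 and 5.51 in the LSK-labelled arrays, against 3.70 to 4.03 in the GMP-labelled arrays and 4.35 in healthy GMP. Ms4a1, which encodes CD20, had 4.75, 6.92 and 7.60 against 3.20 to 3.48 in the GMP-labelled arrays (3.08 ± 0.60, adjusted p = 0.00185), with array 1 lowest. Bank1, an adaptor of B-cell receptor signalling, had 9.20, 7.56 and 8.39 against 3.98 to 5.54 (3.48 ± 0.42, adjusted p = 7.01e-05), with array 1 highest. The B-cell identity factors Pax5 and Ebf1 had no group mean above background. Cd79a had a difference of 0.46 and did not pass, while Cd79b rose by 3.03 ± 0.47 to a level near that of healthy GMP, with 7.94, 7.49 and 7.88 in the LSK-labelled arrays and 8.10 and 8.11 in healthy GMP.

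Genes of natural killer and cytotoxic cells rose in all LSK-labelled arrays. Of 17 tested genes 11 rose and 0 fell, against 10.3% of all tested genes called higher, and array 1 stood with arrays 2 and 3 at all 11. The list median was 2.23, with 1.01, 2.63 and 3.01 in arrays 1, 2 and 3. The list mean was 5.43, 6.98 and 7.12 in the LSK-labelled arrays and 3.53 to 3.95 in the GMP-labelled arrays. Gzma, a granule protease of cytotoxic lymphocytes, had 10.32, 11.35 and 11.26 against 2.96, 3.51, 3.63, 3.74 and 3.36 (7.54 ± 0.55, adjusted p = 5.11e-07). Ccl5, a chemokine of these cells, had 10.17, 11.35 and 11.23 against 4.22, 6.26, 4.46, 4.94 and 5.35 (5.87 ± 0.44, adjusted p = 6.57e-07). Klrd1, the CD94 receptor subunit, had 5.55, 7.60 and 8.31 against 2.72 to 3.16 (4.20 ± 0.52), and the regulators Eomes and Tbx21 rose by 1.76 and 1.77. Prf1 (1.95) and Ncr1 (1.86) did not pass, although all 3 LSK-labelled arrays lay above the range at both. T-cell genes were mostly near background in both groups, with a median of 0.29. Of 13 tested, 3 rose and 1 fell, against 10.3% of all tested genes called higher and 16.5% called lower. Those called were Cd247, Cd28 and Zap70, which rose by 0.43 to 0.92, and Cd3d, which fell. None of these 4 calls was kept without array 2, where the adjusted p was 0.0564, 0.0961, 0.0662 and 0.144. Cd28 lost its call on leaving out any 1 array other than GMP-labelled array 4. Zap70 lost it without any 1 LSK-labelled array or GMP-labelled array 2 or 3, and Cd247 also without LSK-labelled array 3. The T-cell list mean was 3.95 to 4.31 in the LSK-labelled and 3.85 to 4.23 in the GMP-labelled arrays. The part of lymphocytes in the other differences was not tested.

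Other large rises and falls were shared by all LSK-labelled arrays, as the rule for naming them requires. Among the rises, Fabp4, a fatty acid carrier of fat cells and macrophages, had 9.71, 11.26 and 9.84 in the LSK-labelled arrays, against 3.11, 3.36, 3.33, 3.36 and 4.05 in the GMP-labelled arrays (6.83 ± 1.16, adjusted p = 0.00081). Dpysl2, a regulator of microtubules, had 7.64, 10.55 and 10.73 against 3.45 to 4.23 (5.88 ± 0.50, adjusted p = 2.7e-06), while healthy GMP had 9.16 and 8.90. The interferon-inducible Ifi209 likewise had 8.91, 11.85 and 11.38 against 3.49 to 7.02 in the GMP-labelled arrays and 10.10 and 10.00 in healthy GMP (6.24 ± 0.79). Grk3, a receptor kinase, had 9.71, 11.44 and 10.00 against 4.43 to 5.33, with 8.19 and 8.40 in healthy GMP (5.51 ± 0.74). At Dpysl2, Ifi209 and Grk3 every GMP-labelled array lay below healthy GMP. LSK-labelled array 1 lay below healthy GMP at Dpysl2 and Ifi209, and all 3 LSK-labelled arrays lay above it at Grk3. Ms4a4b, Ms4a6b and the MHC class I gene H2-Q4 rose by 5.97 ± 0.39, 5.88 ± 1.00 and 5.56 ± 0.41 (SE).

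Among the falls, Stfa3, a member of the stefin A family of cysteine protease inhibitors found in neutrophils, had 5.07, 5.55 and 6.23 in the LSK-labelled arrays, against 10.81, 11.04, 11.95, 10.61 and 11.79 in the GMP-labelled arrays (−5.62 ± 0.35, adjusted p = 1.22e-07). Stfa2l1 fell by 1.51 ± 0.51 (SE). Its call was lost without LSK-labelled array 1 or 2 or GMP-labelled array 1, 2, 3 or 5 (adjusted p = 0.0635 to 0.161). Thus 2 of the 3 tested stefin genes fell, against 16.5% of all tested genes called lower, while Csta2 did not pass (−0.25). Ces2g, a carboxylesterase, had 5.32, 3.33 and 3.56 against 10.01, 9.53, 10.99, 8.33 and 10.96 (−5.89 ± 0.53, adjusted p = 4.97e-06). Penk, from which enkephalins are cut, had 3.96, 4.42 and 4.65 against 10.21, 9.44, 9.13, 10.25 and 9.87 (−5.44 ± 0.24, adjusted p = 4.69e-09), where healthy GMP had 3.92 and 3.92. Penk, Ces2g and Stfa3 thus lay high in the GMP-labelled arrays and low in the LSK-labelled arrays and in healthy GMP. The same held for Scn2b (−5.41 ± 0.26), a sodium channel subunit, Fah (−5.09 ± 0.23), an enzyme of tyrosine breakdown, Ugt8a (−5.05 ± 0.38), an enzyme of galactolipid synthesis, Hsd17b2 (−4.96 ± 0.54), a steroid dehydrogenase that stayed at 7.02 in LSK-labelled array 2, Mmp2 (−4.59 ± 0.51), a matrix protease, and Cyp26a1 (−4.56 ± 0.59), which breaks down retinoic acid. Tmem45a2 fell by 4.73 ± 0.77 (SE), with 2.76, 5.62 and 7.30 in the LSK-labelled arrays, array 1 lowest.

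Xrcc5 is an exception among the falls. It encodes the Ku80 subunit of the DNA end-joining complex and had 3.87, 3.00 and 3.84 in the LSK-labelled arrays, against 8.22, 8.14, 7.97, 8.09 and 8.22 in the GMP-labelled arrays and 6.70 and 6.43 in healthy GMP (−4.55 ± 0.21, adjusted p = 5.47e-09). All LSK-labelled arrays were at background at this probe set, array 1 included, and no second probe set of the gene was used here. Cnmd, chondromodulin, fell by 5.69 ± 0.59 (SE), and within the GMP-labelled group arrays 2 and 4 were high at 10.47 and 10.29 and arrays 1, 3 and 5 at 7.71, 7.46 and 7.87.

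**Figure D4:**
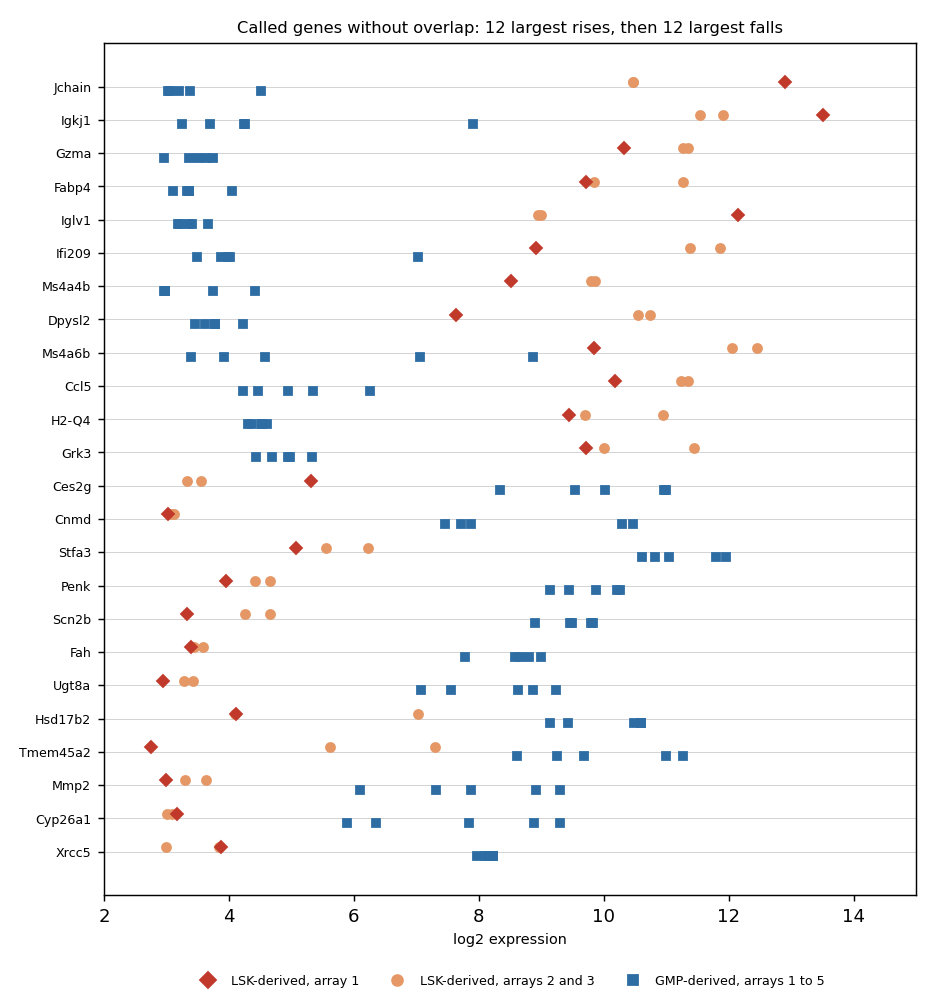
Log2 expression (x axis) of the 12 largest rises (upper rows) and 12 largest falls (lower rows) among called genes without overlap, with LSK-labelled array 1 as diamonds, LSK-labelled arrays 2 and 3 as circles and the GMP-labelled arrays as squares. Array 1 is the highest LSK-labelled array at Jchain (12.89) and Iglv1 (12.15) and the lowest at Dpysl2 (7.64) and Ifi209 (8.91).

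Late neutrophil genes lay lower in array 1 than in the other LSK-labelled arrays. Of 18 tested late neutrophil genes 1 fell and 0 rose, against 16.5% of all tested genes called lower and 10.3% called higher. The median was −0.27, or −1.62, 0.16 and 0.36 in arrays 1, 2 and 3. With array 1 alone 6 of 18 fell, and without it 1 fell and 2 rose. Camp, the cathelicidin of secondary granules, chosen after its values were seen, had 12.70, 14.11 and 14.25 in the LSK-labelled arrays against 13.65 to 14.05 in the GMP-labelled arrays. Array 1 lay below the range and arrays 2 and 3 above it (−0.22 ± 0.35, adjusted p = 0.699). Olfm4, a secondary granule glycoprotein, was the called gene, with 11.08, 9.80 and 10.57 against 13.20, 13.27, 13.27, 13.04 and 13.34 (−2.74 ± 0.27, adjusted p = 1.2e-05), and array 1 stood with the others. Mmp8, neutrophil collagenase, had 8.90, 11.75 and 12.35 against 10.64 to 13.22 and did not pass (−1.20 ± 0.66, adjusted p = 0.197), with array 1 the lowest of the 8.

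Primary granule genes varied within both groups. Mpo, myeloperoxidase, chosen after its values were seen, had 8.18, 11.18 and 11.70 in the LSK-labelled arrays, against 7.71, 13.34, 7.95, 13.36 and 8.87 in the GMP-labelled arrays (0.11 ± 1.22, adjusted p = 0.963). Elane, neutrophil elastase, had 5.70, 8.87 and 9.06 against 7.72, 12.11, 6.98, 12.20 and 7.15 (−1.36 ± 1.16, adjusted p = 0.427). In both genes GMP-labelled arrays 2 and 4 were far above arrays 1, 3 and 5, and LSK-labelled array 1 was below arrays 2 and 3. Of 9 tested genes 1 rose and 1 fell, against 10.3% of all tested genes called higher and 16.5% called lower. Such counts are no result about the list. The gene that rose was Ctsc, which activates granule proteases (3.63 ± 0.97). The gene that fell was Ms4a3, a marker of the granulocyte-monocyte lineage (−2.41 ± 0.70). The Ctsc call was lost without LSK-labelled array 2 (adjusted p = 0.0637) or 3 (adjusted p = 0.0567). The Ms4a3 call was lost without LSK-labelled array 1 (adjusted p = 0.0908).

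Eosinophil genes were high in LSK-labelled array 1 and lower in arrays 2 and 3. This list was made after the values were seen, because the genes in which array 1 lay furthest above arrays 2 and 3 were Alox15, Epx, Mycn, Prg3, Serpinb2 and Retnla. They are described without a test. Epx, eosinophil peroxidase, had 11.68, 3.76 and 3.28 in LSK-labelled arrays 1, 2 and 3, against 3.41 to 3.90 in the GMP-labelled arrays. Prg2, the major basic protein of eosinophil granules, had 13.19, 6.35 and 4.41 against 3.45, 3.82, 4.85, 3.99 and 6.81. Healthy GMP also had both, with 9.35 and 9.86 at Epx and 11.89 and 11.56 at Prg2. The receptors Siglecf (11.05, 6.35 and 7.28), Il5ra (7.66, 3.69 and 3.58) and Ccr3 (9.23, 3.29 and 3.33) and the transcription factor Gata1 (9.14, 3.48 and 3.31) were likewise highest in array 1 among the LSK-labelled arrays. In the GMP-labelled arrays Siglecf ran from 5.22 to 8.27, Il5ra from 3.40 to 3.80, Ccr3 from 2.90 to 6.63 and Gata1 from 3.16 to 3.67. Ear3, an eosinophil-associated ribonuclease, was the exception, high in all LSK-labelled arrays at 13.20, 12.30 and 11.90 against 4.75 to 9.63. Over the 9 genes the mean was 10.97, 5.30 and 4.90 in the LSK-labelled arrays and 4.18 to 5.68 in the GMP-labelled arrays. The sort required both CD11b and Gr1, and the part of eosinophils in array 1 was not tested.

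The genes in which array 1 lay furthest below arrays 2 and 3 were Slamf8, Gpr84, Il1f9, Tnfsf13, Prr5l and Ankrd22. Slamf8, a myeloid receptor of the SLAM family, had 3.54, 8.83 and 8.54 in the LSK-labelled arrays against 2.95 to 3.17 in the GMP-labelled arrays, so that array 1 was at background. Gpr84, a receptor for medium-chain fatty acids, had 4.50, 9.10 and 9.09 against 8.28 to 9.41, with arrays 2 and 3 inside the GMP-labelled range. Tnfsf13, the cytokine APRIL, had 4.86, 9.36 and 9.59 against 9.16 to 9.84 and showed the same order. Il1f9, an interleukin-36 cytokine, had 5.56, 10.34 and 10.12 against 7.07 to 9.18, with array 1 below the range and the others above it.

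**Figure D5:**
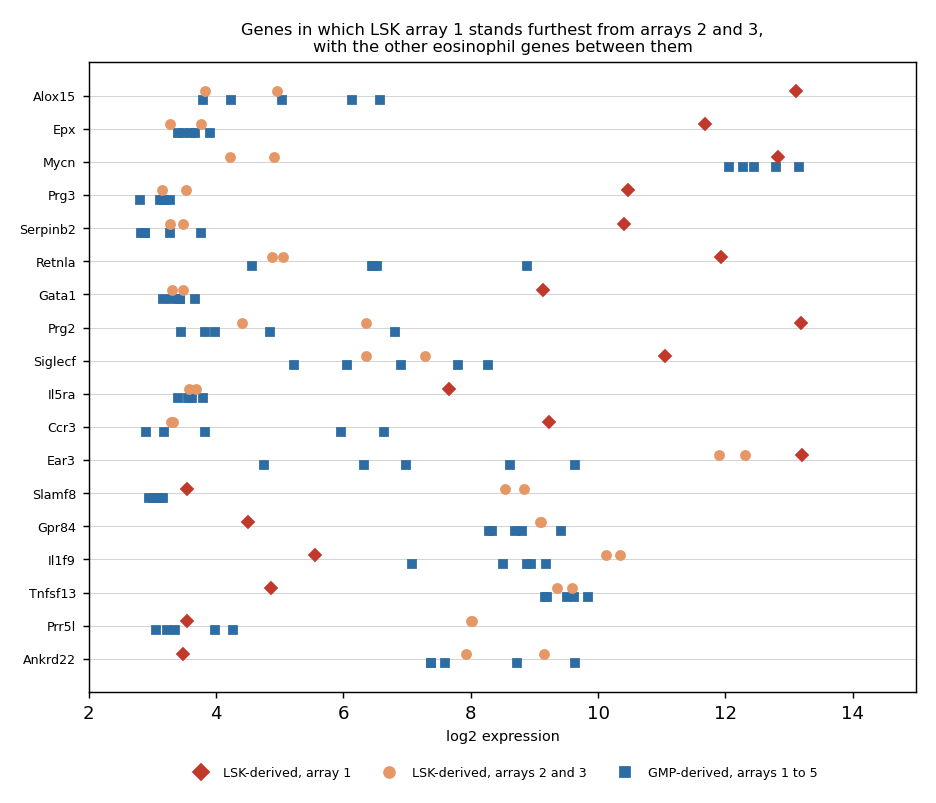
Log2 expression (x axis) of the 6 genes in which LSK-labelled array 1 (diamonds) lies furthest above arrays 2 and 3 (circles), of the other eosinophil genes, and of the 6 genes in which it lies furthest below them, with the GMP-labelled arrays as squares. At Epx array 1 is at 11.68 and the other 7 arrays are at 3.28 to 3.90.

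In the remaining lists at most 4 genes were called in either direction, against 10.3% of all tested genes called higher and 16.5% called lower. Counts as small as these describe the members and are no result about a list. Of 14 stem and progenitor genes 2 rose and 3 fell: Meis1, a homeobox partner of Hoxa9, had 4.95, 4.33 and 4.63 in the LSK-labelled arrays against 3.08 to 3.24 in the GMP-labelled arrays (1.49 ± 0.20, adjusted p = 0.000147), while Myb fell by 1.63 ± 0.50 (SE), with array 1 standing with the others at both. Hoxa9 and Cd34 had differences of −0.07 and 0.35 and did not pass. Of 14 Bcl2 family genes 3 rose, Bcl2a1a (2.77 ± 0.60), Mcl1 (0.81 ± 0.22) and Bak1 (0.68 ± 0.17), and Bcl2 itself fell. Bcl2a1a and Mcl1 are inhibitors of cell death, while Bak1 promotes it. Of 20 genes of protein folding in the endoplasmic reticulum 4 fell, such as Hyou1 (−1.47 ± 0.20), and 1 rose, Ddit3 (1.86 ± 0.51). Mast cell and basophil genes had a median of 1.02 and rose in 3 of 8 (Fcer1a, Cpa3 and Gata2), each below 5 in all 8 arrays, and platelet genes in 1 of 8, Itgb3 (2.96 ± 0.53). In the stroma list, where 3 of 10 genes were above background in any group, 1 rose, Pecam1 (2.52 ± 0.47). Among 12 glycolysis and 10 erythroid genes 0 passed in limma, and before adjustment 2 and 1 of them had a p under 0.05. Without array 2 the adjusted p was 0.141 for Myb, 0.0828 for Mcl1, 0.0847 for Ddit3, 0.0613 for Cpa3 and 0.0938 for Gata2. Myb and Cpa3 also lost their calls without array 3, and Myb without GMP-labelled array 2 or 4. Gata2 lost its call without any 1 LSK-labelled array or GMP-labelled array 4 or 5.

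A sex-linked difference ran alongside the groups. Eif2s3y, on the Y chromosome, had 9.90, 9.60 and 8.93 in the LSK-labelled arrays, against 2.79, 9.90, 2.78, 2.84 and 2.75 in GMP-labelled arrays 1 to 5. Xist, expressed from the inactive X chromosome, had 5.10, 4.53 and 10.92 against 12.92, 6.84, 12.02, 11.85 and 12.54. LSK-labelled array 3 was thus high at both, and GMP-labelled array 2 was placed with LSK-labelled arrays 1 and 2. With the Eif2s3y level as a covariate limma called 2715 genes, 1005 higher and 1710 lower, of which 2349 were among the 3108 called without it. Of 154 named genes 21 lost their call and 4 gained it. Those lost include Bcl2, Perp, Klf4, Irf8, F13a1, Ctsc, Ccl9, Stfa2l1, Mcm2, Mcm6, Cdt1, Cd3d and Cd4.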

How the data were processed

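The values are the log2 expression summaries per probe set that the authors deposited for 17 Affymetrix arrays, and per the submitters' processing notes RMA and affy were used to make them. The sources used here neither give their versions nor say if the 17 arrays were normalized jointly. The deposited table held 45141 probe sets, of which 104 were controls. The platform annotation listed 29449, with 28898 naming 1 gene, 551 naming several (left unnamed) and 15588 not listed, and 28689 matched RefSeq. Where several probe sets named a gene, that of highest mean signal stood for it, giving 17097 genes. The 11625 genes tested had at least 1 group mean above 3.83, the median over all values.

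Groups came from the titles. limma 3.58.1 in R 4.3.3 was fitted to all 5 groups without a block, and p-values were adjusted by Benjamini-Hochberg over all tested genes. The code was tested on simulated data. The labels number the replicates, but same-numbered LSK and GMP arrays had residual correlations of 0.112, −0.110 and 0.254, so the numbers were not taken as pairs. Precision is limited by how few arrays each group has.

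The members and gene lists were chosen with earlier results of these data known. Named genes are the transgenes and sort genes, the 12 largest rises and 12 largest falls among called genes without overlap, from each list at most 4 members, taking called ones first and then by size of difference, and the 6 genes furthest above and 6 furthest below in array 1. Cdkn2a, Cdkn1a, Mpo, Elane, Camp, Mki67, Il1b, Slamf8 and the eosinophil list were added after their values were seen, as were the other list members named outside this rule. Alternatives covered the samples fitted, weights, filter, probe set rule, normalization, block, covariate and left-out arrays.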

Additional observations from a re-analysis of the deposited data

Results flagged for a closer look

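Among the 5 GMP-labelled arrays, 1 array stood far from the other 4 in 25 of 184 genes and list means examined. Chance marks about 1 in 20 such groups, and genes of 1 list are not independent. In log2 expression, GMP-labelled array 1 was high at Jchain (4.51, others 3.02 to 3.37) and Igkj1 (7.91, others 3.25 to 4.25) and low at Ctsc (3.59, others 8.36 to 9.03).

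GMP-labelled array 2 carried most of the sex-linked values, with Eif2s3y at 9.90 (others 2.75 to 2.84), Kdm5d at 7.62 (others 3.37 to 3.47), Uty at 4.59 (others 3.27 to 3.49), Xist at 6.84 (others 11.85 to 12.92) and a sex-linked list mean of 7.24 (others 5.36 to 5.60). It was also high at Fn1 (8.29), Ldha (12.49), Slc4a1 (5.83), Sox4 (5.15) and the erythroid list mean (5.63, others 4.36 to 4.57), and low at Mcl1 (11.10, others 11.79 to 11.84).

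GMP-labelled array 4 was high at Ifi209 (7.02, others 3.49 to 4.02), Mx1 (5.10, others 3.53 to 3.81), Pou2af1 (3.67), Blnk (3.63), Cd28 (3.68), Fcer1a (2.80) and the mean of the myeloid transcription factors (9.55, others 8.34 to 8.57), and low at Stfa2l1 (10.94, others 11.97 to 12.15). GMP-labelled array 5 was high at Fabp4 (4.05, others 3.11 to 3.36), Spic (5.44, others 3.68 to 4.05) and the splenic macrophage list mean (6.34, others 5.23 to 5.40).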

How the results depend on the processing

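Against 3108 called genes (1194 higher, 1914 lower), the 8 arrays alone gave 1659 (668 higher, 991 lower), LSK-labelled array 1 alone gave 1374 (515 higher, 859 lower) and a fold of at least 2 gave 1867 (792 higher, 1075 lower). Array weights gave 4660 (2008 higher, 2652 lower). On the 8 arrays alone 29 of 155 named genes lost their call and 3 gained it, with Mycn, Bcl2, Perp, Ifit3, Rtp4, Irf8, F13a1 and Nop58 among those lost. Leaving out 1 array gave 1889 to 3716 called genes, 692 to 1690 higher and 1197 to 2131 lower. Both totals at the ends came from the LSK-labelled arrays, 1889 without array 2 and 3716 without array 1. With the replicate block limma called 2561 genes (952 higher, 1609 lower), of which 2455 were shared, and 15 of 155 named genes lost their call and 1 gained it. The block is not a pairing given by the labels. Of 100 named genes called, 34 lost the call without 1 array and 66 kept it without any 1 array. Signs turned with array 1 alone at Mycn (0.27), Bcl2 (0.54), Perp (0.52), Il1f9 (−2.95) and Prr5l (−0.03), with the mean over probe sets at Bcl2 (0.71), with the Eif2s3y covariate at Kdm5d (−0.86) and Uty (−1.16), and with array weights at Ccr3 (−2.02). The causes were not tested, apart from the Bcl2 mean, which joins probe sets of opposite sign. Of 560 list medians under alternatives, 522 moved by less than 1 SD of the LSK-labelled array means. That SD includes the split of array 1 from arrays 2 and 3, and the alternatives share arrays. The count is therefore lenient and is no measure of stability. Signal near background compresses differences.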
